A study of Mus musculus with 6 samples.

Results

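The genes described here are 10 transcription factor and immediate-early genes of the mouse, given as a list of names with no threshold on a measured value. They were the Jun genes Jun, Junb and Jund, the Fos genes Fos, Fosb, Fosl1 and Fosl2, and Atf3, Egr1 and Ier2. All 10 were found among the 54446 gene identifiers of the deposited table, and all 10 reached 10 counts in 2 or more libraries, the minimum that left 14956 genes for testing. Poly(A) RNA was sequenced from TRAMP-C2, a prostate cancer cell line from a C57BL/6 TRAMP mouse, a transgenic strain in which SV40 T antigen is driven in the prostate. The cells were left without drug (Ctrl) or were exposed for 24 h to 2 µM oxaliplatin (Oxali) or 2 µM cisplatin (Cispl), with 2 libraries in each of the 3 groups. All groups were the same line in the same kind of medium, and only the agent differed by label. The comparisons asked how the RNA of these genes differed after each drug, and whether the 2 drugs differed from each other at the same dose and time.

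AP-1 is a family of DNA-binding dimers. Jun proteins pair with each other, with Fos proteins or with ATF proteins through a leucine zipper, and the basic region beside the zipper binds a short palindromic site. Jun and Fos are the classical strong activators, JunB and JunD can act as weaker activators or as antagonists depending on the partner, and Fosl1 (Fra-1) and Fosl2 (Fra-2) lack the strong activation domain of Fos and FosB. Immediate-early genes are transcribed within minutes of a stimulus without new protein synthesis, and many of their transcripts decay quickly, so RNA taken a day after drug addition shows a late or sustained level rather than the early burst. Jun and Atf3 are known to respond to DNA damage and other stresses through stress-activated kinases.

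The gene bodies were short as a group. In GENCODE M21 (GRCm38), 8 of the 10 bodies were shorter than the median of the tested genes, the exceptions being Atf3 (47744 bp) and Fosl2 (22042 bp). Jun, Jund and Ier2 each consisted of 1 exon block, that is, they have no intron, which held for 11.6% of the tested genes. RefSeq promoter windows on GRCm38.p6 were found for 7 of the 10 genes, and 4 of them are shown because these genes differed between the 2 drugs in RNA level: Jun, Junb and Atf3 were higher in Cispl cells and Fosl2 was higher in Oxali cells. Each run is the 250 bases before the RefSeq start, read 5′ to 3′ on the gene's strand, with matches to the searched motifs in capitals. The windows were chr4:95052223-95052472 (minus strand) for Jun, chr8:84978749-84978998 (minus strand) for Junb, chr1:191183334-191183583 (minus strand) for Atf3 and chr5:32136222-32136471 (plus strand) for Fosl2.
Jun: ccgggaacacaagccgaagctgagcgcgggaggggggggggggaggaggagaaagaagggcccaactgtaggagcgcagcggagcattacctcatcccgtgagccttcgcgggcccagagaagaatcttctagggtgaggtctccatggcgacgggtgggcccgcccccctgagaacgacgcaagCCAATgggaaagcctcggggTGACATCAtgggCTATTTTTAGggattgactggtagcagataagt
Junb: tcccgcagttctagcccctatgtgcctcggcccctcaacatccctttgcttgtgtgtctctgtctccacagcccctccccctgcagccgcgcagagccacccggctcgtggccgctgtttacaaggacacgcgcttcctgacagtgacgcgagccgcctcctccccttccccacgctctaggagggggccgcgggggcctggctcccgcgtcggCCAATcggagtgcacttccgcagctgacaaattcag
Atf3: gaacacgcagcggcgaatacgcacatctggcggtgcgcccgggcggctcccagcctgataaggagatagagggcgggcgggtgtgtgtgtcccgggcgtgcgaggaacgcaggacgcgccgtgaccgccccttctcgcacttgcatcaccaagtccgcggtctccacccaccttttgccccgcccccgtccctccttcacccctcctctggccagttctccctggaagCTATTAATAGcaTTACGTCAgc
Fosl2: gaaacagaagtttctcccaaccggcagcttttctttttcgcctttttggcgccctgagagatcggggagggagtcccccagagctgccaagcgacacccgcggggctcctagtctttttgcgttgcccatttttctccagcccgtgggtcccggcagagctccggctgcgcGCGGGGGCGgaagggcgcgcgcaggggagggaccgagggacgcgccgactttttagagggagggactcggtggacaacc

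The motifs were searched on both strands over these 250 bases, and some were added after the promoters had been read. In the Jun window TGACATCA lay at positions -45 to -38 from the start, a match to TGACNTCA, the pattern of the cAMP response element and of the site known as the Jun promoter's own AP-1 site. Of the 32851 RefSeq promoter windows of the same length, 7.49% held TGACNTCA. The Jun window also held CTATTTTTAG at -33 to -24, which has the form of a MEF2 site (CTA and TAG spaced by 4 bases), and CCAAT at -65 to -61, found in 3.20% and 33.8% of all windows. The Atf3 window held TTACGTCA at -10 to -3 and CTATTAATAG at -22 to -13, and TTACGTCA was found in 0.447% of windows. TTACGTCA was searched as fixed letters with no open base. As some motifs were added after reading, this low share is no measure of how unusual the match is. The Junb window held CCAAT at -36 to -32, and the Fosl2 window held GCGGGGGCG at -79 to -71, a match to the Egr-type pattern GCGNGGGCG that 4.70% of windows held. The Fosb window, not shown, held the same letters at -50 to -42, so that 2 of the 7 windows held this pattern. The plain AP-1 pattern TGANTCA was in 0 of the 7 windows and in 6.75% of all windows, and the CArG box, the site of serum response factor, was in 0 of 7 and in 1.47% of all windows. These are matches of letters in a short window, not measured binding sites. Sites outside the 250 bases were not searched, so a count of 0 does not mean that a promoter lacks the motif. Fosl1, Egr1 and Ier2 were not among the 7 windows. The RefSeq starts of Junb, Jund, Fosb, Atf3 and Fosl2 used for the windows differ from the outermost starts in GENCODE. The gap was widest for Atf3 (191183333 in RefSeq, 191218039 in GENCODE), then for Jund (70697739 and 70698949) and Fosl2 (32136472 and 32135801). Which start these cells use was not tested.

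Total counts ran from 21345312 to 24041767 per library, so that 3 counts, the limit that a count of 0 allows, are worth 0.125 to 0.141 CPM (counts relative to all counts of a library), a limit for counting error only. Mitochondrial genes took 1.87% to 2.11% of the counts. The label of a prostate epithelial tumor line was compared with marker genes. Of the epithelial markers, Krt5 was at 0 in every library and Epcam was under the 3-count limit. Krt8, Krt18 (5.13 to 7.43 CPM) and Krt14 were low but detected. Krt8 had 5.67 to 5.90 CPM in Ctrl and Cispl and 4.26 to 4.32 CPM in Oxali libraries. Krt14 had 3.69 and 4.08 CPM in Ctrl, 6.79 and 5.52 in Oxali and 4.79 and 5.02 in Cispl replicates 1 and 2. Cdh1 had 16.6 to 18.8 CPM in Ctrl and Oxali and 24.1 to 25.02 CPM in Cispl libraries. All 8 mesenchymal markers (among them Vim, Fn1 and Col1a1) were detected, with sums of 15623 to 16029 CPM in Ctrl, 14505 to 14880 CPM in Oxali and 13346 to 13790 CPM in Cispl libraries. Of 7 immune markers 6 were under the limit in all libraries, with Cd68 at 1.37 to 2.19 CPM, and of 4 endothelial markers Cdh5 and Tek were under it. The 4 summed to 1.07 to 1.26 CPM in Ctrl, 2.29 to 2.79 CPM in Oxali and 2.37 to 3.14 CPM in Cispl libraries, nearly all of it Kdr (0.937 to 1.124, 2.20 to 2.496 and 2.19 to 2.75 CPM), with Pecam1 at most at 0.344 CPM. The mesenchymal sum, Kdr, Cdh1, Krt14 and Krt8 moved with the drug groups, and their part in the results was not tested. The libraries are of bulk RNA, so a smaller number of cells with a transcript and less of it per cell cannot be told apart. The labels do not say whether replicates were separate cultures, and p values measure only the spread between these libraries.

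After oxaliplatin, Jun, Junb, Fosl1, Fosl2, Atf3 and Egr1 were higher than in Ctrl cells, 6 of the 10 genes, and 0 were lower (DESeq2, adjusted p threshold 0.05). Over all tested genes 10.7% were called higher, 9.5% lower and 20.2% in either direction. After cisplatin, Jun, Junb, Fosl1, Fosl2, Atf3 and Ier2 were higher, again 6 of 10 with 0 lower, beside 15.7% of all tested genes called higher, 12.4% lower and 28.1% in either direction. The median log2 fold change of the 10 genes was 0.44 after oxaliplatin and 0.82 after cisplatin, where the medians of all tested genes were -0.0029 and -0.00083. Libraries of drug and Ctrl did not overlap for 8 of 10 genes in each contrast, which was also so for 64.8% of all genes with oxaliplatin (32.1% higher in Oxali libraries) and 69.4% with cisplatin (34.6% higher in Cispl libraries). With edgeR's quasi-likelihood test 7 genes were called after each drug, Fos being the added one. That test called more genes in general, 4618 of 14956 with oxaliplatin and 6112 with cisplatin, against 3028 and 4203 with DESeq2. Both contrasts used the same 2 Ctrl libraries, so they are given side by side and are not independent of each other. Over all genes, 1607 were called higher and 1421 lower with oxaliplatin and 2355 higher and 1848 lower with cisplatin, whereas scaling to total counts gave 1482 and 1570, and 1826 and 2382.

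**Figure D1:**
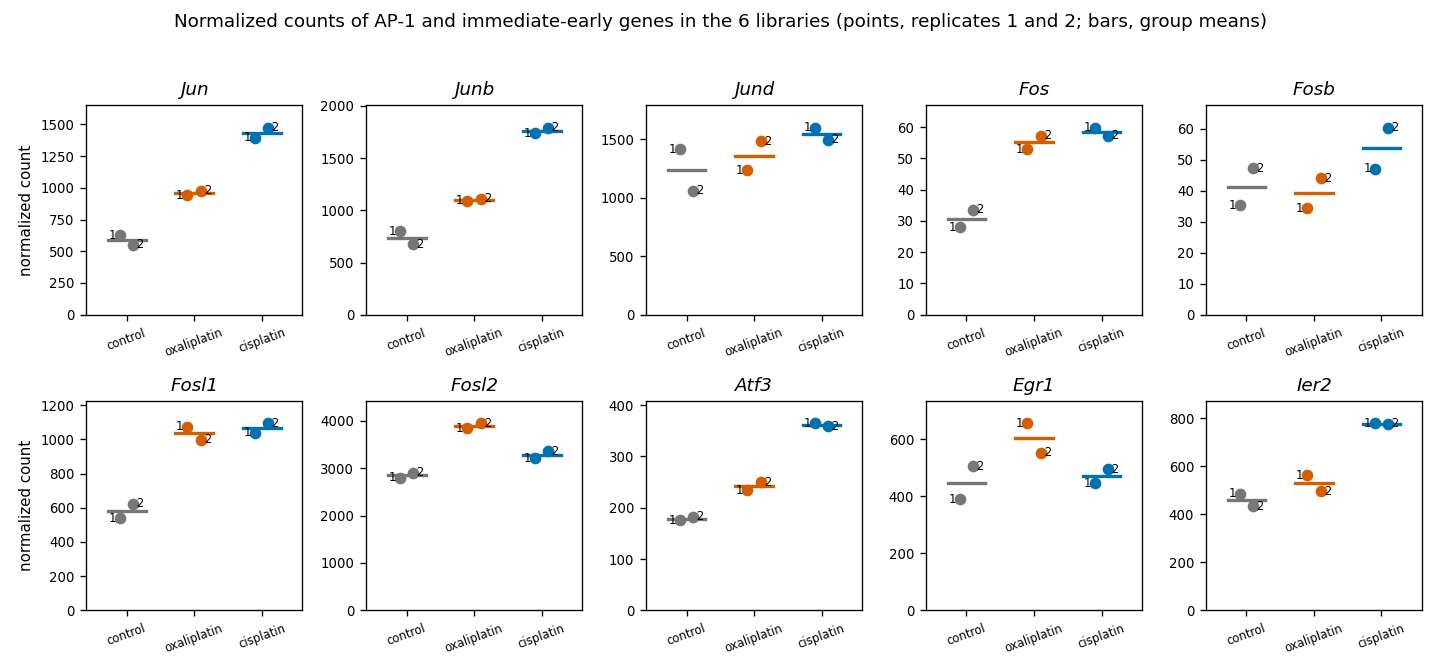
Normalized counts (vertical axes, each starting at 0) of the 10 genes in the 3 groups, with a point per library numbered by replicate and a bar at the group mean. Jun and Junb rise in steps from Ctrl to Oxali to Cispl libraries (Jun means 588, 958 and 1433), Fosl1 is at like levels after both drugs, Fosl2 is highest after oxaliplatin, and the Jund and Fosb libraries overlap between Ctrl and Oxali.

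The levels of the genes in Ctrl cells were compared per length, as CPM per kb of merged exons. Jund had the highest level at 33.5 ± 6.68 (SD, n = 2). Junb (14.5), Ier2 (13.7), Fosl2 (13.3) and Fosl1 (12.9) followed, and the libraries of neighbors in this order overlapped, so that their order was not resolved. Jun stood below them at 8.34, then Egr1 at 4.51 and Atf3 at 3.75. Fos (0.591) and Fosb (0.299) had the lowest levels, and at these levels a library held few reads of them. In Cispl cells the order was Jund (40.5), Junb (33.5), Fosl1 (22.9), Ier2 (22.4), Jun (19.7), Fosl2 (14.8), Atf3 (7.35), Egr1 (4.59), Fos (1.09) and Fosb (0.376), where the libraries of Fosl1 and Ier2 alone overlapped among neighbors. In Oxali cells Fosl1 (22.9) came after Jund (36.5) and before Junb (21.4), with no overlap between neighbors. Merged exon length counts every annotated exon, which for Fosl2 (9680 bases) includes long untranslated sequence, so levels of such genes are low estimates where shorter forms are made.

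**Figure D2:**
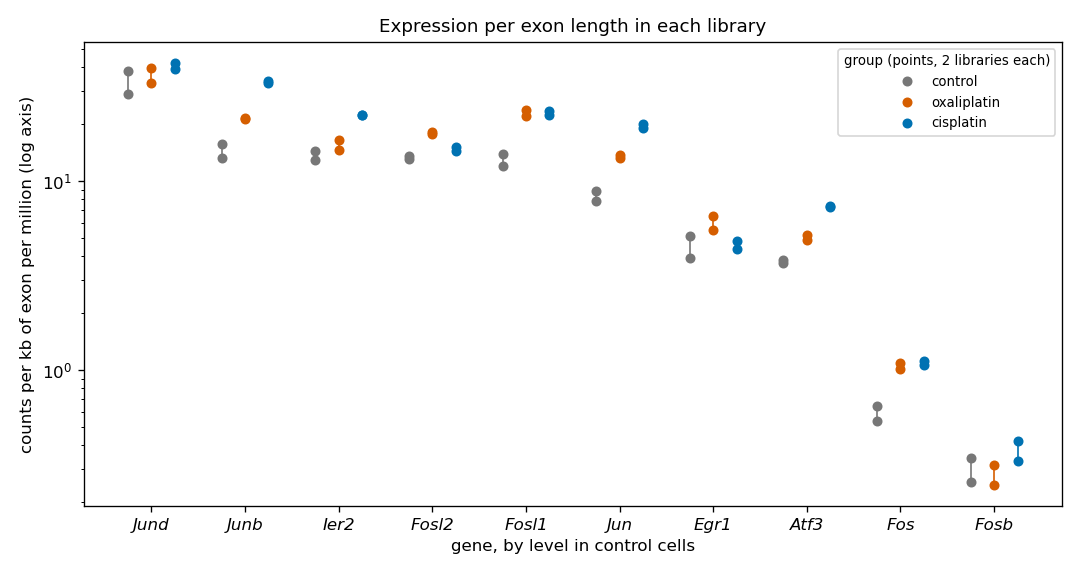
Level per exon length (CPM per kb of exon, log axis) of each gene in each library, with genes ordered by their Ctrl level and points joined within a group. Jund is the highest in all 3 groups (33.5, 36.5 and 40.5 on average) and Fos and Fosb the lowest.

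Jun encodes c-Jun, the Jun protein that homodimerizes and is activated by phosphorylation by JNK kinases. It lies at chr4:95049034-95052222 on the minus strand. Its normalized counts were 626 and 551 in Ctrl replicates 1 and 2, 940.4 and 976 in Oxali replicates 1 and 2, and 1393 and 1473 in Cispl replicates 1 and 2. The 3 groups did not overlap, and Cispl libraries were the highest. Relative to Ctrl the log2 fold change was 0.70 ± 0.10 (SE) with oxaliplatin (DESeq2 adjusted p = 1.81e-10) and 1.29 ± 0.10 with cisplatin (DESeq2 adjusted p = 3.40e-35), that is 1.63-fold and 2.44-fold. These calls were made under every alternative tried. A 232-base stretch of its exon is shared with the antisense gene Junos, which had 11.8 to 25.5 counts per library.

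Junb encodes JunB, a Jun protein that often opposes c-Jun on shared targets. Its gene (chr8:84974484-84978718, minus strand) had 801 and 676 normalized counts in Ctrl, 1093 and 1110.4 in Oxali and 1737 and 1792 in Cispl replicates 1 and 2. As for Jun, the groups stood apart in the order Ctrl, Oxali, Cispl. The log2 fold change was 0.58 ± 0.10 with oxaliplatin (DESeq2 adjusted p = 1.34e-07) and 1.26 ± 0.10 with cisplatin (DESeq2 adjusted p = 1.90e-35), again under every alternative. Junb shares 173 exon bases with Prdx2 on the opposite strand, which had 6324 and 6236 counts in Ctrl, 6061 and 5765 in Oxali and 7207 and 6935 in Cispl replicates 1 and 2, several times those of Junb.

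Jund encodes JunD, the Jun protein that many resting cells hold at a steady level. The counts of Jund (chr8:70698949-70700616, plus strand) were 1412 and 1060.1 in Ctrl, 1235 and 1482 in Oxali and 1597 and 1495 in Cispl replicates 1 and 2. Ctrl and Oxali libraries overlapped, while both Cispl libraries were above the other 4 libraries. Neither difference passed the test, with log2 fold changes of 0.14 ± 0.20 for oxaliplatin (DESeq2 adjusted p = 0.695) and 0.32 ± 0.20 for cisplatin (DESeq2 adjusted p = 0.222). Without Ctrl replicate 1 the values were 0.36 (DESeq2 adjusted p = 0.0488) and 0.54 (DESeq2 adjusted p = 0.000678), and without Ctrl replicate 2 or Oxali replicate 2 the oxaliplatin value was -0.054 or -0.0021. Jund shares 877 exon bases with the antisense gene Gm11175, which had 11.5 to 115 counts per library.

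The sum and the proportions of the 3 Jun genes are given without a test. Their summed level was 62.8 and 49.9 CPM per kb in Ctrl, 67.7 and 75.1 in Oxali and 94.2 and 93.3 in Cispl replicates 1 and 2. Jund made up 60.9% and 57.7% of that sum in the Ctrl, 49.0% and 53.0% in the Oxali, and 44.6% and 41.9% in the Cispl libraries. The share of Junb went from 25.03% and 26.7% in Ctrl to 35.1% and 36.4% in Cispl, and that of Jun from 14.1% and 15.7% to 20.3% and 21.6%. Jund was the most abundant Jun transcript in every library by this measure.

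Fos encodes c-Fos, the founding Fos protein, which binds DNA only as a dimer with a Jun partner. The gene (chr12:85473890-85477273, plus strand) had 28.02 and 33.5 normalized counts in Ctrl, 52.9 and 57.3 in Oxali and 59.8 and 57.3 in Cispl replicates 1 and 2. Both Ctrl libraries were below all 4 drug libraries, and Oxali and Cispl libraries lay close together. At these low counts the log2 values were 0.84 ± 0.40 for oxaliplatin (DESeq2 adjusted p = 0.110) and 0.93 ± 0.40 for cisplatin (DESeq2 adjusted p = 0.0588), neither of which passed. The edgeR adjusted p was 0.0175 for oxaliplatin and 0.00837 for cisplatin, both passing.

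Fosb encodes FosB, a close relative of c-Fos that also has a short spliced form. At chr7:19302696-19310051 on the minus strand, it had 35.3 and 47.3 counts in Ctrl, 34.3 and 44.0 in Oxali and 47.1 and 60.4 in Cispl replicates 1 and 2. All 3 groups were low, Ctrl and Oxali overlapped, and Cispl replicate 1 fell below Ctrl replicate 2. The log2 values were -0.08 ± 0.43 for oxaliplatin (DESeq2 adjusted p = 0.929) and 0.38 ± 0.42 for cisplatin (DESeq2 adjusted p = 0.547), with 95% intervals of -0.92 to 0.76 and -0.45 to 1.20. The oxaliplatin interval included the value of 0.70 found for Jun, so a difference of that size was not excluded.

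Fosl1 encodes Fra-1, a Fos protein that is itself an AP-1 target and is often high in invasive, mesenchymal tumor cells. Its counts (chr19:5447547-5455946, plus strand) were 539.6 and 623 in Ctrl, 1076 and 999 in Oxali and 1038 and 1095 in Cispl replicates 1 and 2. The 4 drug libraries lay well above both Ctrl libraries and overlapped with each other. The log2 fold change was 0.84 ± 0.11 with oxaliplatin (DESeq2 adjusted p = 7.42e-13) and 0.88 ± 0.11 with cisplatin (DESeq2 adjusted p = 3.47e-14), or 1.78-fold and 1.83-fold, and both calls were made under every alternative. Of its exons 1163 bases are shared with Ccdc85b on the opposite strand, a gene with 304 and 159 counts in Ctrl and 303 to 323 counts in the 4 drug libraries. The kit marked strand, but whether the counting used it is not stated, so the counts of Fosl1, and those of Jun, Junb and Jund with their overlapping genes, are uncertain to that extent.

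Fosl2 encodes Fra-2, the other Fos protein without a strong activation domain. The counts of Fosl2 (chr5:32135801-32157842, plus strand) were 2796 and 2903 in Ctrl, 3848 and 3949 in Oxali and 3209 and 3361 in Cispl replicates 1 and 2. No groups overlapped, and here the Oxali libraries were the highest. The log2 fold change was 0.45 ± 0.06 with oxaliplatin (DESeq2 adjusted p = 5.30e-14) and 0.20 ± 0.06 with cisplatin (DESeq2 adjusted p = 0.00174). The cisplatin call was lost without Ctrl replicate 1 (DESeq2 adjusted p = 0.0731) and without Cispl replicate 2 (DESeq2 adjusted p = 0.135).

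Summed over the 4 Fos genes, the level was 25.8 and 28.4 CPM per kb in Ctrl, 42.8 and 41.7 in Oxali and 38.3 and 40.2 in Cispl replicates 1 and 2. Fosl1 and Fosl2 made up nearly all of it. The share of Fosl1 was 46.4% and 48.8% in Ctrl, 55.4% and 52.8% in Oxali and 58.4% and 58.5% in Cispl libraries, and that of Fosl2 was 50.5% and 47.8%, 41.6% and 43.8%, and 37.9% and 37.8%. Fos and Fosb together never held the larger part, with Fos at 2.08% to 2.91% and Fosb at 0.576% to 1.21%.

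Atf3 encodes a stress-induced ATF protein that pairs with Jun proteins and as a homodimer represses transcription. The gene (chr1:191170296-191218039, minus strand) had 175 and 182 counts in Ctrl, 234 and 249.7 in Oxali and 365 and 359 in Cispl replicates 1 and 2. The groups did not overlap and the replicates of each were close. With cisplatin the level was 2.02-fold that of Ctrl, a log2 rise of 1.02 ± 0.17 (DESeq2 adjusted p = 3.70e-08), which was called under every alternative. With oxaliplatin the log2 value was 0.43 ± 0.17, just past the threshold (DESeq2 adjusted p = 0.0488). That call was lost without any 1 of the 6 libraries (DESeq2 adjusted p from 0.174 to 0.404), and it held under 3 of 15 alternatives in all.

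Egr1 encodes a zinc finger activator that binds GC-rich sites and is induced through serum response factor. The counts of this gene, on chromosome 18, were 389 and 505 in Ctrl, 656 and 553 in Oxali and 445 and 495 in Cispl replicates 1 and 2. Both Oxali libraries were above all others, and both Cispl libraries fell between the Ctrl libraries. The log2 fold change was 0.43 ± 0.16 with oxaliplatin (DESeq2 adjusted p = 0.0327) and 0.07 ± 0.16 with cisplatin, which did not pass (DESeq2 adjusted p = 0.798). The oxaliplatin call was lost without Ctrl replicate 1 (log2 value 0.26, DESeq2 adjusted p = 0.399) and without Oxali replicate 1 (0.30, DESeq2 adjusted p = 0.431), Oxali replicate 2 or either Cispl replicate (DESeq2 adjusted p from 0.0599 to 0.0734). It was also lost with no filter on low counts and with the replicate numbers as a block, as labelled or crossed, and held under 7 of 15 alternatives in all. The cisplatin value was -0.11 without Ctrl replicate 1 and -0.0078 without Cispl replicate 2.

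Ier2 encodes a small nuclear protein whose RNA is among the classical early responders to growth factors. At chr8:84661331-84662852 on the minus strand, it had 486 and 434 counts in Ctrl, 563 and 496 in Oxali and 779 and 777 in Cispl replicates 1 and 2. The Cispl libraries stood far above the rest, whereas Oxali libraries were above Ctrl by less. The log2 fold change was 0.76 ± 0.12 with cisplatin (DESeq2 adjusted p = 2.10e-08), called under every alternative. With oxaliplatin it was 0.21 ± 0.13, which did not pass (DESeq2 adjusted p = 0.253).

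**Figure D3:**
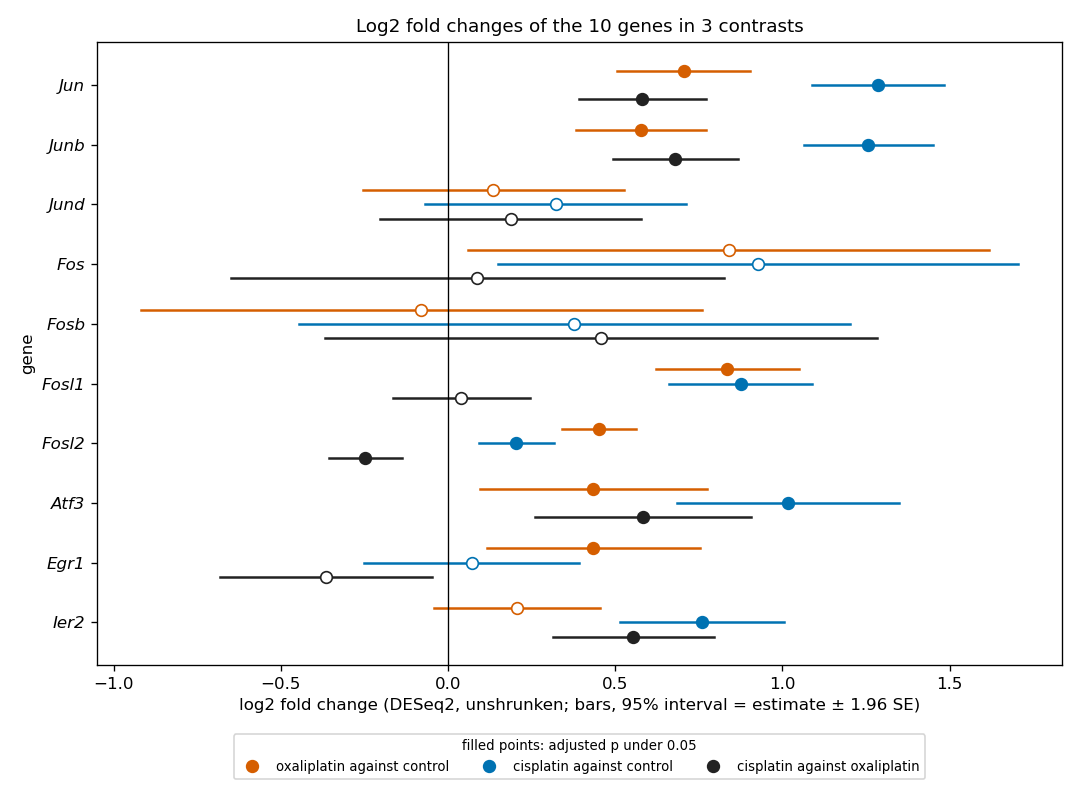
Log2 fold changes (horizontal axis) of the 10 genes for oxaliplatin against control, cisplatin against control and cisplatin against oxaliplatin, with 95% intervals and filled points where the DESeq2 adjusted p was under 0.05. Jun, Junb, Atf3 and Ier2 lie to the right in the cisplatin against oxaliplatin contrast, Fosl2 lies to the left (-0.25), and the intervals of Fos and Fosb are the widest.

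The drugs were compared directly as 1 pair of compounds at the same 2 µM dose and 24 h. Both are platinum complexes, cisplatin with ammine and chloride ligands and oxaliplatin with a diaminocyclohexane carrier and an oxalate leaving group. Of the 10 genes, 4 were higher in Cispl than in Oxali cells (Jun, Junb, Atf3 and Ier2) and 1 was lower (Fosl2), beside 11.3% of all tested genes called higher, 8.62% called lower and 19.9% called in either direction. The median log2 difference of the 10 genes was 0.32, and that of all tested genes was 0.0033. Cispl and Oxali libraries did not overlap for 8 of the 10 genes, as for 68% of all genes (34.5% higher in Cispl libraries). Over all genes 1688 were called higher and 1289 lower in Cispl cells, where scaling to total counts gave 1362 and 1619.

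Junb had the largest of these differences with a log2 value of 0.68 ± 0.10 (DESeq2 adjusted p = 4.16e-11), followed by Jun and Atf3, both at 0.58, with SEs of 0.10 and 0.16 (DESeq2 adjusted p = 5.05e-08 and 0.00293). Ier2 differed by 0.55 ± 0.12 (DESeq2 adjusted p = 8.43e-05), and Fosl2 by -0.25 ± 0.06 (DESeq2 adjusted p = 0.000108). Each of these 5 genes had both Cispl libraries on the same side of both Oxali libraries. The Atf3 call was lost without any 1 of the 4 drug libraries (DESeq2 adjusted p from 0.0833 to 0.178). The Ier2 call was lost without Oxali replicate 2 (DESeq2 adjusted p = 0.0548), and the Fosl2 call without Oxali replicate 2 (DESeq2 adjusted p = 0.0558) or Cispl replicate 1 (DESeq2 adjusted p = 0.0606). Without Oxali replicate 2 the number of genes called was 2, and without Cispl replicate 1 it was 3.

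For the other 5 genes no difference between the drugs passed. The tightest interval was that of Fosl1, with a log2 difference of 0.04 and a 95% interval of -0.17 to 0.24 (DESeq2 adjusted p = 0.839). The value for Fosl1 was -0.013 without Oxali replicate 2. Jund had a 95% interval of -0.20 to 0.58, Fos of -0.65 to 0.83 and Fosb of -0.37 to 1.28, and those of Fos and Fosb included the differences found for Jun and Junb. Egr1 was lower in Cispl than in Oxali libraries without overlap, by -0.36 ± 0.16 with an interval of -0.68 to -0.05. It did not pass with DESeq2 (adjusted p = 0.0850) and passed with edgeR (adjusted p = 0.0395).

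Other genes of the bZIP class, to which Jun, Fos and Atf3 belong, were counted from a list of 17, of which 15 were tested. This list was chosen with earlier results of these data known. With oxaliplatin 4 of the 15 were higher and 3 lower, with cisplatin 8 were higher and 3 lower, and in Cispl against Oxali cells 3 were higher and 2 lower, with medians of -0.04, 0.33 and 0.25. That was 46.7%, 73.3% and 33.3% of the list called in either direction, beside 20.2%, 28.1% and 19.9% of all tested genes. Jdp2, a partner of Jun that represses AP-1 sites, had 1019 and 982 normalized counts in Ctrl, 744 and 731 in Oxali and 1264 and 1256 in Cispl replicates 1 and 2. Its log2 fold change was -0.44 ± 0.09 with oxaliplatin (DESeq2 adjusted p = 1.30e-05), and it was 0.33 higher with cisplatin (DESeq2 adjusted p = 0.000815), with a difference between the drugs of 0.77 ± 0.09 (DESeq2 adjusted p = 2.04e-16). Ddit3 (CHOP), a stress-induced C/EBP-type protein, rose by 0.62 with oxaliplatin (DESeq2 adjusted p = 3.25e-11) and by 0.79 with cisplatin (DESeq2 adjusted p = 1.39e-18). The name Ddit3 matched 2 gene identifiers, and only the first was examined. Mafk, a small Maf protein, rose by 0.59 (DESeq2 adjusted p = 3.79e-05) and 0.84 (DESeq2 adjusted p = 5.41e-10). Atf4, the activator of the integrated stress response, was 0.35 higher with cisplatin than in Ctrl (DESeq2 adjusted p = 5.90e-15) and 0.39 higher than with oxaliplatin (DESeq2 adjusted p = 2.67e-18). Nfe2l2 (NRF2), the activator of antioxidant genes, was 0.50 higher in Cispl than in Oxali cells (DESeq2 adjusted p = 4.20e-12). The number called with oxaliplatin was lower without Ctrl replicate 2 or either Oxali replicate. With cisplatin it was lower without Ctrl replicate 2 or either Cispl replicate. For Cispl against Oxali it was lower without either Oxali replicate or Cispl replicate 1. Over all tested genes the number called was lower in each of these fits as well.

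In a list of other immediate-early genes, most of the called genes were higher after each drug. The list was chosen with earlier results of these data known, so its share of called genes is not independent of them. Of 34 tested from a list of 35, 21 were higher and 2 lower with oxaliplatin, and 19 were higher and 2 lower with cisplatin, with medians of 0.48 and 0.52. The shares called in either direction were 67.6% and 61.8%, beside 20.2% and 28.1% of all tested genes. Plk2, a polo-like kinase and known p53 target, had 1395 and 1486 counts in Ctrl, 3431 and 3120.3 in Oxali and 3607 and 3816 in Cispl replicates 1 and 2. It rose by 1.19 ± 0.07 with oxaliplatin (DESeq2 adjusted p = 2.81e-56) and by 1.37 ± 0.07 with cisplatin (DESeq2 adjusted p = 1.01e-75). The matricellular gene Ccn1 rose by 0.87 with oxaliplatin (DESeq2 adjusted p = 6.55e-49), and Ccn2 by 0.78 with oxaliplatin (DESeq2 adjusted p = 1.00e-20) and by 1.32 with cisplatin (DESeq2 adjusted p = 1.79e-60). Ier3, a survival-associated early gene, had 569 and 594 counts in Ctrl, 869 and 828 in Oxali and 1738 and 1829 in Cispl, a rise of 1.62 with cisplatin (DESeq2 adjusted p = 4.61e-67). Between the drugs 47.1% of the list was called, beside 19.9% of all tested genes, with 11 of the 34 higher and 5 lower in Cispl cells. The former included Ier3 by 1.07 (DESeq2 adjusted p = 1.42e-31), the Krüppel-like factor gene Klf4 by 0.60 (DESeq2 adjusted p = 1.26e-10) and Ccn2 by 0.54 (DESeq2 adjusted p = 8.20e-11). That last count of 16 was lower without either replicate of either drug, as was the number called over all tested genes.

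Among MAP kinases and the factors that act on immediate-early promoters, counts were near the background of all genes. Of 30 tested, 4 were higher and 3 lower with oxaliplatin (23.3% of the list), 3 higher and 3 lower with cisplatin (20.0%), and 4 higher and 2 lower in Cispl against Oxali cells (20.0%). Map3k5 (ASK1), a kinase upstream of JNK and p38, fell by 0.57 with each drug (DESeq2 adjusted p = 1.13e-06 with oxaliplatin and 1.05e-06 with cisplatin). Map3k20 (ZAK), another kinase upstream of JNK, rose by 0.37 with oxaliplatin (DESeq2 adjusted p = 0.000329). With cisplatin Map2k3 rose by 0.26 (DESeq2 adjusted p = 3.71e-05) and Map2k2 by 0.22 (DESeq2 adjusted p = 0.00224). Srf, which encodes serum response factor, had 1070 and 993 counts in Ctrl, 1315 and 1242 in Oxali and 945 and 915 in Cispl, and was lower in Cispl than in Oxali cells by -0.46 (DESeq2 adjusted p = 5.90e-06). Mapk11 (p38β) was 0.50 higher (DESeq2 adjusted p = 0.00116) and Map2k3 0.19 higher (DESeq2 adjusted p = 0.00565) in Cispl than in Oxali cells. Leaving out any 1 of the 6 libraries lowered the number called with each drug. Leaving out any 1 of the 4 drug libraries lowered the number between the drugs. Over all tested genes the number called was lower in each of these fits as well.

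For genes whose products degrade or restrain AP-1 proteins, 3 of 11 were called in each contrast (27.3%), near the 20.2%, 28.1% and 19.9% of all tested genes. The called genes are given as values, all of small size. With oxaliplatin Cop1, part of a ubiquitin ligase for c-Jun, rose by 0.25 (DESeq2 adjusted p = 0.0253). Men1 (menin), a binder of JunD, fell by 0.27 (DESeq2 adjusted p = 0.00294), and Ddb1, a ligase adaptor, fell by 0.10 (DESeq2 adjusted p = 0.00379). With cisplatin the ligase gene Itch fell by 0.23 (DESeq2 adjusted p = 0.0224), the kinase gene Gsk3b by 0.21 (DESeq2 adjusted p = 0.00332) and the corepressor gene Ncor1 by 0.19 (DESeq2 adjusted p = 0.0202). In Cispl against Oxali cells Men1 (0.30, DESeq2 adjusted p = 0.000639) and Ddb1 (0.13, DESeq2 adjusted p = 0.000185) were higher and Ncor1 (-0.24, DESeq2 adjusted p = 0.00273) was lower. With oxaliplatin fewer of the list were called without either Ctrl or either Oxali replicate. With cisplatin fewer were called without Ctrl replicate 2, either Cispl replicate or either Oxali replicate. Between the drugs fewer were called without Oxali replicate 1 or Cispl replicate 2. Over all tested genes fewer were called in each of these fits as well.

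A list of 20 textbook AP-1 target genes, 19 of them tested, was higher in most calls after both drugs. With oxaliplatin 10 were higher and 1 lower, and with cisplatin 12 were higher and 1 lower, with medians of 0.46 and 0.45. The shares called in either direction were 57.9% and 68.4%, beside 20.2% and 28.1% of all tested genes. Cd44, a hyaluronan receptor, had 4910.4 and 5390.2 counts in Ctrl, 8128 and 7741 in Oxali and 7909 and 8619 in Cispl replicates 1 and 2, a rise of 0.62 with oxaliplatin (DESeq2 adjusted p = 6.20e-22) and 0.68 with cisplatin (DESeq2 adjusted p = 2.28e-26). Spp1 (osteopontin) rose by 0.38 (DESeq2 adjusted p = 6.37e-23) and 0.41 (DESeq2 adjusted p = 9.70e-26). Ccnd1 (cyclin D1) rose by 0.95 with cisplatin (DESeq2 adjusted p = 1.08e-77). Between the drugs 31.6% of the list was called, beside 19.9% of all tested genes, with 5 higher and 1 lower in Cispl cells. Ccnd1 (0.56, DESeq2 adjusted p = 5.86e-28) and the collagenase gene Mmp13 (0.41, DESeq2 adjusted p = 1.95e-09) were among the higher ones, and Gja1 (connexin 43) was lower (-0.28, DESeq2 adjusted p = 1.65e-07). The oxaliplatin count was lower without either Oxali replicate, and the count between the drugs was lower without Oxali replicate 1 or Cispl replicate 2. Over all tested genes fewer were called in each of these fits as well. The target list was written from general knowledge, but with earlier results of these data known, so its share of called genes is not independent of them. No binding of AP-1 to these genes was measured in these libraries.

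**Figure D4:**
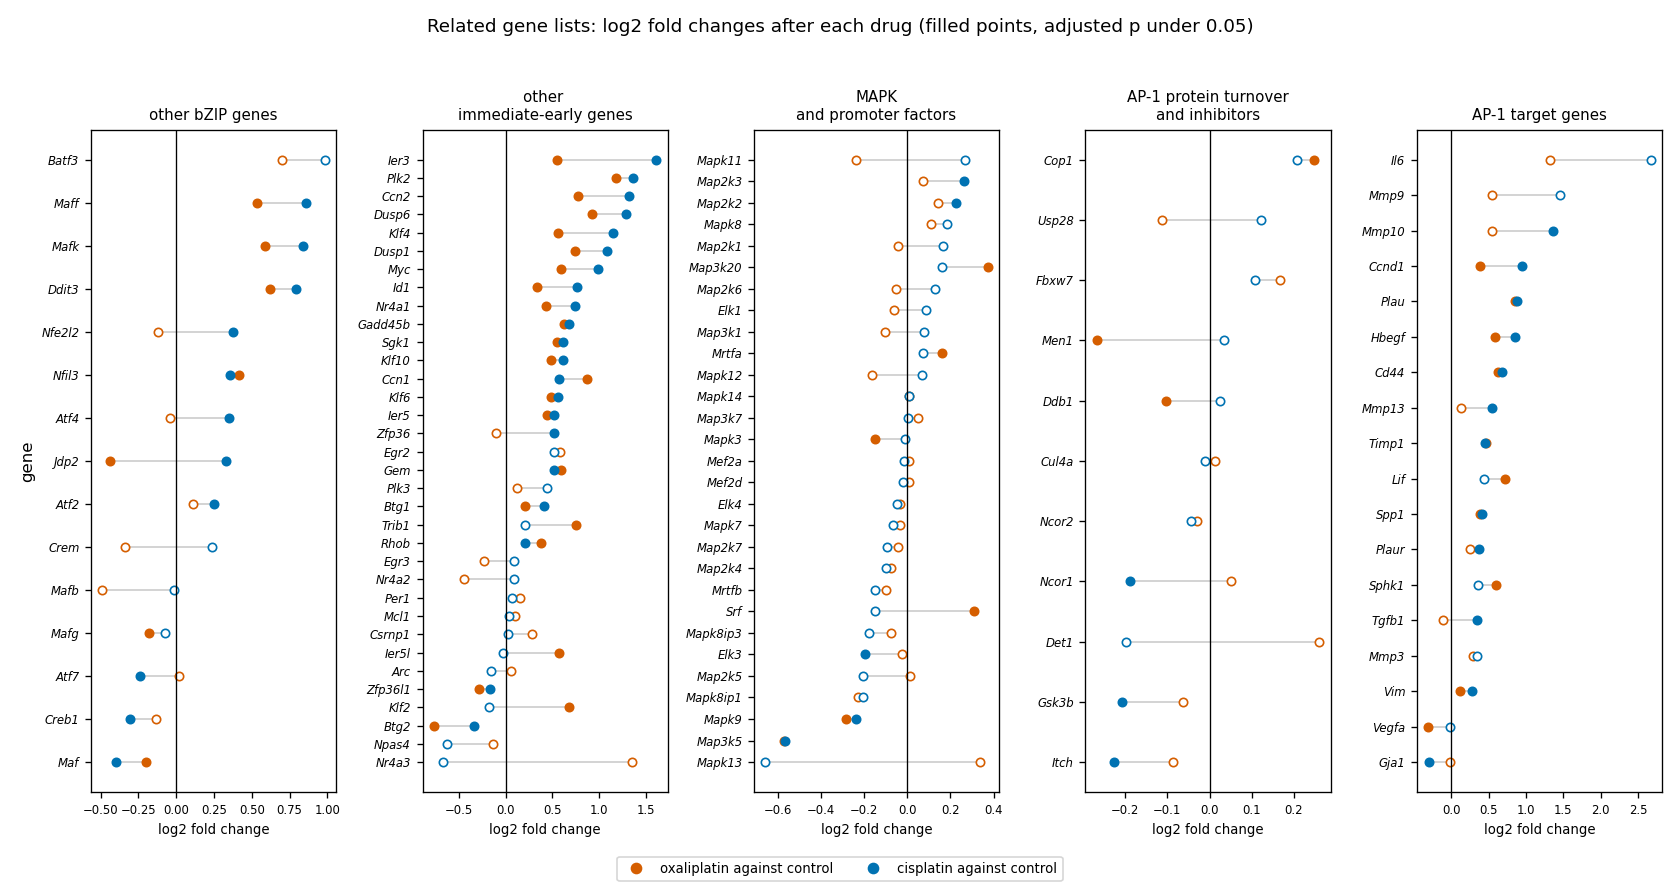
Log2 fold changes (horizontal axes) of genes tested in the 5 related lists with oxaliplatin and with cisplatin against control, joined per gene, with filled points where the DESeq2 adjusted p was under 0.05. The immediate-early and AP-1 target lists lie mostly right of 0 (medians 0.48 and 0.52, and 0.46 and 0.45), while the kinase and the turnover lists center near 0.

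Profiles over the 6 libraries were compared for the 8 genes that averaged 100 or more normalized counts, against the 10731 genes at or above that level. Likeness was the root-mean-square difference of log2 profiles centered on their means, where a smaller value is more alike. Jun and Junb were among each other's 3 most alike genes at 0.058, beside Phlda1 (0.057) and Ecscr (0.077) for Jun and Rnd1 (0.060) and Phlda1 (0.080) for Junb. Phlda1 had 452 and 438 normalized counts in Ctrl, 717 and 691 in Oxali and 1003 and 1092 in Cispl replicates 1 and 2, the same stepwise order. Atf3 was most like Txnip (0.042), Odc1 (0.044) and Tinagl1 (0.045), and Ier2 most like Adam8 (0.044), Nbl1 (0.049) and Pim1 (0.056). For Fosl1 the most alike included 1110002L01Rik (0.047) and 3300005D01Rik (0.061). Fosl2, whose highest libraries were the Oxali ones, was most like Dhodh (0.021), Prpf38a (0.026) and Atad3a (0.028). Egr1 was most like 3110039I08Rik (0.078), Tulp4 (0.082) and Nav3 (0.083), and Jund like Rpl36-ps12 (0.051), Psmg4 (0.060) and Pgp (0.063). The values also depend on how much a gene itself varied. The SD of the log2 profile was 0.529 for Jun, 0.520 for Junb, 0.416 for Atf3 and 0.411 for Fosl1. It was 0.329 for Ier2, 0.236 for Egr1, 0.199 for Jund and 0.187 for Fosl2. A smaller value for Jund than for Jun is therefore not a closer likeness. With 6 libraries in 3 groups, many genes can share such a profile.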

How the data were processed

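The 6 RNA-seq libraries (2 each of TRAMP-C2 cells without drug, with 2 µM oxaliplatin or with 2 µM cisplatin for 24 h) were grouped by the sample labels. The authors deposited expected counts per gene, not scaled between libraries. The submitters' processing notes name STAR 2.5.3a, RSEM 1.3.0 and the genome build GRCm38.p6, without their roles, whereas a different counter is named in the methods for in vitro RNA-seq. The kit was stranded, and whether counting used strand is not given in the sources used here.

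Identifiers were matched to GENCODE M21 (54409 of 54446, 53229 with the same version). Expected counts were rounded, and the 14956 genes reaching 10 counts in 2 or more libraries were tested. A DESeq2 model (version 1.42.0 under R 4.3.3) took all 6 libraries, with the group as its only term. The study's methods also name DESeq2 with an adjusted p threshold. Wald tests were two-sided and Benjamini-Hochberg adjusted over all genes within each contrast (threshold 0.05, in the text "called"), and log2 fold changes are unshrunken. Normalized counts are counts divided by size factors (0.964 to 1.08). Intervals are the estimate ± 1.96 SE. Levels per length are CPM (counts relative to all counts of a library) per kb of merged exons, without size factors. Promoter windows came from RefSeq.

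All 10 genes were named whatever their values, and from each of the 5 related lists the 3 genes with the smallest adjusted p per contrast. Genes and lists were chosen with earlier results of these data known, and the lists shared no gene with each other or with the 10 genes. Some genes of the marker and related lists and of the most alike genes are not reported here, while list counts and medians cover every tested gene of a list. The same replicate number was not shown to pair the samples. Deviations from group means over 10731 genes correlated at 0.07 (control and oxaliplatin), -0.05 (control and cisplatin) and -0.19 (oxaliplatin and cisplatin). With 2 libraries per group these values cannot exclude a pairing. Alternatives were edgeR (version 4.0.16), TMM and total-count scaling, no low-count filter or a stricter one, DESeq2 without independent filtering, a block for the replicate number, fits to the 4 libraries of a contrast alone, and each library left out. The fitting code was tested on simulated data.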

Additional observations from a re-analysis of the deposited data

How the results depend on the processing

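Of the 30 values of the 10 genes in 3 contrasts, 17 were called and 11 of these kept their call and direction under every alternative. With each library left out in turn, where a lone library of a group is assumed to vary like the others, the log2 fold change ranged from -0.054 to 0.36 for Jund with oxaliplatin, from -0.11 to 0.27 for Egr1 with cisplatin, and from -0.013 to 0.095 for Fosl1 between the drugs, and the cause was not tested. Left-out libraries gave 2 to 5 calls among the 10 genes between the drugs. For bZIP genes they gave 3 to 5 with oxaliplatin, 6 to 11 with cisplatin and 3 to 4 between the drugs. They gave 7 to 13 for immediate-early genes between the drugs, 1 to 4, 2 to 3 and 1 to 4 for the kinase list and 0 to 2, 0 to 2 and 1 to 3 for the turnover list in the same order of contrasts, and 7 to 10 with oxaliplatin and 3 to 6 between the drugs for AP-1 targets.

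The replicate block, though the numbers were not shown to pair the samples, lowered the calls over all genes from 3028, 4203 and 2977 to 1958, 2833 and 1861, and left 4, 6 and 5 of the 10 genes called. With it, 10 immediate-early genes were called between the drugs, 4, 3 and 2 genes of the kinase list in the 3 contrasts, and 1 turnover gene with cisplatin. A crossed block, chosen after seeing the data, called 1810, 2647 and 1704 of all tested genes and 4, 6 and 4 of the 10 genes. Between the drugs 3 bZIP and 9 immediate-early genes were called under it. The kinase list gave 3, 3 and 2 calls, and 1 turnover gene was called with cisplatin. edgeR called 9 bZIP genes and 6 turnover genes between the drugs and 11 genes of the kinase list with cisplatin. Over all 14956 tested genes it called 4773 between the drugs and 6112 with cisplatin. In 44 cases a gene of the 10 had no adjusted p under an alternative, all of them Fos or Fosb. The low counts of Fos and Fosb, and 2 libraries per group, set the precision of these values.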
